A study of Mus musculus with 24 samples.

Results

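The comparison is between dorsal root ganglia (DRGs) of wildtype (WT) mice at day 5 and at day 2 after sciatic nerve lesion. It uses 8 of the 24 samples of the series, 4 per day, chosen by their labels. The spread of the values was estimated from all 24 samples. The series profiled L4 and L5 DRGs of WT and *Nfil3* knockout (KO) mice at both days, and took as control the ganglia of the side without lesion, and every group had 4 samples. All mice were adult males. WT mice were *Nfil3* +/+ littermates of the KO mice, from a line kept on the C57BL/6J background, and KO mice were *Nfil3* -/-, made by deleting a floxed allele with a Cre driven by a CMV promoter, so that the gene is lost in all tissues and not in neurons alone. In every mouse the left sciatic nerve was transected and its ends were coaptated with sutures, and all mice were anesthetized and received analgesic after surgery. Each sample was 1 colour of a 2-colour Agilent array, and a level is given here as a log2 intensity after background correction and quantile normalization. Replicates are given in the order 1 to 4, where 1 and 2 were labelled with Cy3 and 3 and 4 with Cy5. At WT day 2, replicates 1 and 2 were also on slide 3 and replicates 3 and 4 on slide 2.

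The DRG holds the cell bodies of sensory neurons, wrapped by satellite glia, together with Schwann cells, vessels and resident macrophages. After a peripheral nerve is cut, the neurons switch on a set of regeneration-associated genes, such as transcription factors of the AP-1 group, neuropeptides and growth cone proteins, while macrophages become more numerous around their cell bodies. NFIL3 is a bZIP repressor that the injured neurons also produce. It binds the same type of site as DBP, TEF and HLF, the PAR bZIP factors whose levels follow the circadian clock.

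The labels name DRG neurons, but RNA was taken from whole ganglia. All 16 sensory neuron markers on the array were well above background, and so were all 15 markers of myelinating Schwann cells, all 26 of macrophages, 13 of 14 of satellite glia and 6 of 7 of erythroid cells. Of the 12 spinal cord markers, 2 were well above background. In such bulk samples, fewer cells of a type and less RNA per cell cannot be told apart. The 8 samples correlated with each other at Pearson's r of 0.957 to 0.975, 61.2% to 71.3% of probes were well above background, and no spot was saturated. The days were spread unevenly over slides: slide 3 held 2 samples of each day, slide 1 only day 5 samples and slide 2 only day 2 samples.

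From day 2 to day 5, 12 of 26 macrophage markers and 5 of 27 chemokine and receptor genes rose, with *Ms4a7*, *Folr2* and *Ccl8* each more than 4-fold higher, while 3 serum amyloid A genes fell, and of 20 clock genes 1 rose and 2 fell. Of 27750 genes, each read by its brightest probe, 164 were higher at day 5 and 40 lower at an adjusted p under 0.05 (limma with Benjamini-Hochberg adjustment), which are 0.591% and 0.144% of all genes. Another measure of the same change is the count of genes at least 2-fold apart, 78 of the higher and 15 of the lower. For 202 of the 204 genes the 4 samples of one day all lay on one side of the 4 of the other. The calls came from these same samples, so the count adds no separate evidence, and the share among all genes is not given here. The median difference was 0.98 for the higher and -0.79 for the lower genes on the log2 scale, while the median over all genes was -0.01. Most of the higher genes, 114, already had a day 2 mean above the control mean, and 44 rose above control between the days. Among the lower genes, 20 were above control at both days and 17 were above it at day 2 and at or below it at day 5. The 8 samples fitted alone gave 42 genes, of which 34 were among the 204. In limma on those 8, *Ms4a7* (adjusted p = 0.00114), *Anxa10* (0.0125) and *Saa2* (0.0125) passed. *Folr2* (0.115), *Ccl8* (0.0532), *Reg3b* (0.0753), *Ms4a14* (0.153), *Clec10a* (0.0639), *Serpinb5* (0.0619) and *Adcyap1* (0.0987) did not. The count in the fit of all samples depends on single samples too. It was 92, 114, 102 and 112 without day 5 replicate 1, 2, 3 or 4, and 119, 128, 216 and 104 without day 2 replicate 1, 2, 3 or 4.

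**Figure D1:**
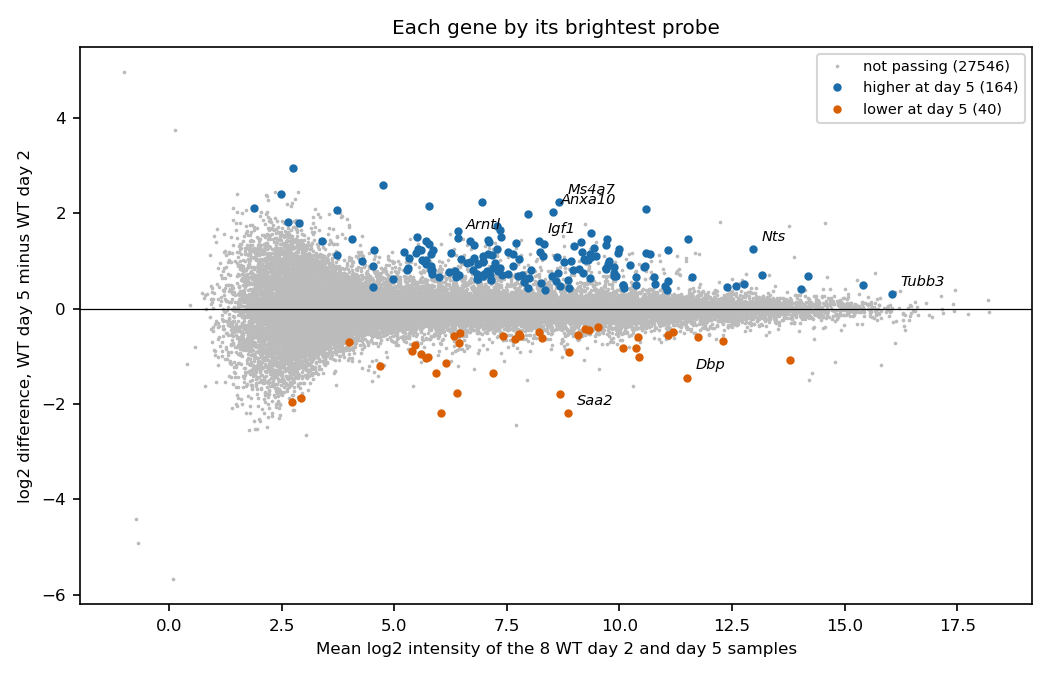
Each point is 1 gene, with its mean log2 intensity over the 8 samples on the x axis and its log2 difference between WT day 5 and WT day 2 on the y axis. The 164 higher and 40 lower genes that passed are coloured, and the rest are grey.

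The gene with the smallest p-value was *Ms4a7*, a membrane protein of the MS4A family found on macrophages. It read 7.48, 7.64, 7.71 and 7.35 at day 2 and 9.85, 9.80, 9.78 and 9.71 at day 5. The day 2 samples lay at the control mean of 7.58, and every day 5 sample lay far above all of them. The difference was 2.24 (SE 0.19, limma adjusted p = 3.17e-06), a 4.71-fold rise, and the probe lies on chromosome 19 at 11396026-11396801 (mm9). *Folr2*, the folate receptor beta of tissue macrophages, read 5.72, 6.49, 6.39 and 4.69 at day 2 and 8.26, 7.97, 8.005 and 8.02 at day 5, and the day 2 samples varied far more than those of day 5. It rose 4.74-fold (log2 difference 2.24, SE 0.35, adjusted p = 0.00306).

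Chemokines that draw in leukocytes were among the largest differences. *Ccl8* read 9.55, 9.43, 10.30 and 8.97 at day 2 and 11.59, 11.48, 11.60 and 11.92 at day 5, with a control mean of 7.27. It was thus above control at both days and rose another 4.24-fold between them (adjusted p = 0.00328). *Ccl17*, a ligand of the receptor CCR4, read 4.29, 4.52, 5.35 and 4.64 at day 2 and 6.58, 6.85, 8.14 and 5.84 at day 5. The samples of the days did not overlap, but day 5 replicate 3 was more than 1 log2 unit above the other day 5 samples. The rise of 2.15 (SE 0.44, adjusted p = 0.0249) did not pass when any of 6 single samples was left out, with adjusted p of up to 0.0888. The list of chemokines and their receptors, which does not hold *Ccl17*, had 5 of 27 members higher and none lower. Of all genes, 0.591% were higher. The 5 members included, besides *Ccl8*, the ligand *Cxcl16* (1.14) and the receptors *Cx3cr1* (1.44) and *Cxcr3* (1.24, adjusted p = 0.0475).

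Of 26 macrophage markers, 12 rose and none fell, a share of 46.2% against 0.591% of all genes. The median difference over the list was 1.06. Only *Msr1* had a negative difference. *Adgre1*, which encodes the classic surface antigen of mouse macrophages, read 8.33, 8.61, 8.99 and 8.38 at day 2 and 9.98, 10.16, 10.08 and 10.41 at day 5. That is a rise of 1.58 (SE 0.24, adjusted p = 0.00277), and no day 2 sample reached the day 5 values. The receptor for colony stimulating factor 1, *Csf1r*, rose by 1.47 (adjusted p = 0.00173) and *Trem2*, a lipid-sensing receptor of phagocytes, by 1.28 (adjusted p = 0.000988). The other passing members were *Ms4a7*, *Cx3cr1*, *C1qa*, *C1qb*, *Ctss*, *Fcgr1* (adjusted p = 0.0485), *Fcgr3* (0.041), *Mpeg1* (0.0209) and *Clec7a* (0.0213). Of these, *Cx3cr1* is also counted in the chemokine list. Over the alternatives of processing and samples, 0 to 18 markers of the list passed as higher, with 0 in the 4 samples of slide 3 alone. Markers that did not pass had positive values too, with 0.52 for *Cd68*, 0.83 for *Mrc1* and 0.91 for *Cd163*. The summed intensity of the list was 13540 to 21990 in the control samples, 20900 to 37870 at day 2 and 46860 to 62020 at day 5. The part that macrophage number has in the rise of other genes was not tested.

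Some genes of complement and antigen presentation rose as well, but *C1qa*, *C1qb* and *Ctss* among them are also counted in the macrophage list. Of all genes, 0.591% were higher. Of the complement list, 4 of 21 members rose, and these were the 3 chains of C1q, which starts the classical pathway, and *C3ar1*, the receptor for C3a. *C1qa* rose by 1.34 and *C1qb* by 1.18, while *C1qc* rose by 1.22 at an adjusted p of 0.0492 and did not pass without 7 of the 8 samples, each left out in turn. *C3ar1* lost its call without 4 of them (adjusted p up to 0.0779), *C1qb* without 2 (0.055) and *C1qa* without 1 (0.0586). Of 11 genes of MHC class II presentation, 2 rose. These were *Ctss*, the protease that trims the invariant chain, by 1.46 (adjusted p = 0.00493) and *H2-Aa* by 1.08 (adjusted p = 0.0388). *H2-Aa* read 7.83, 7.73, 8.91 and 7.82 at day 2 and 9.34, 8.98, 9.18 and 9.13 at day 5. Day 2 replicate 3 nearly reached the day 5 samples, and the same sample was high for *H2-Ab1* and *Ctss*. Without it the call for *H2-Aa* held, but it was lost without any other of the 8 samples (adjusted p up to 0.143). The related genes *H2-Ab1* (1.07), *H2-Eb1* (0.94) and *Cd74* (1.01) had similar values at adjusted p of 0.113, 0.12 and 0.126, and each passed when day 2 replicate 3 was left out. Of the 4 probes of *H2-Ab1*, the brightest gave this value and 2 others passed, with differences of 1.17 (adjusted p = 0.0268) and 1.24 (adjusted p = 0.0471).

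**Figure D2:**
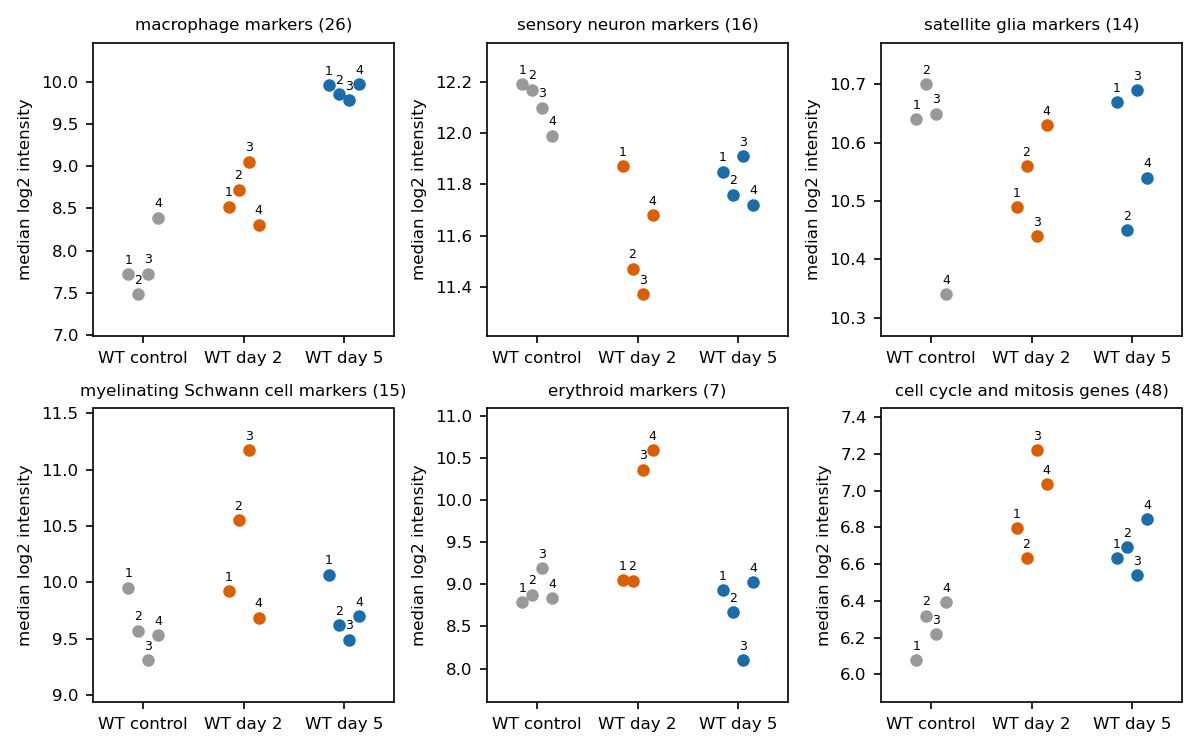
Each panel gives, for the marker list of 1 cell type, the median log2 intensity of its members in each of the 12 WT samples, by group, with 1 point per sample. For macrophage markers the day 5 samples lie between 9.78 and 9.97 and the day 2 samples between 8.31 and 9.06.

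Further genes of immune cells followed. *Clec10a*, a lectin of macrophages and dendritic cells, rose by 1.98 (adjusted p = 0.00239). *Ltc4s*, which makes leukotriene C4, rose by 1.64 (adjusted p = 0.00277). The survival factor *Bcl2a1b*, which has near-identical copies that a probe may not tell apart, rose by 1.66 (adjusted p = 0.00146). *Ms4a14*, a neighbour of *Ms4a7* in the same gene family, did not stand well above background in any day 2 sample. Its log2 difference to day 5 was 2.07 (adjusted p = 0.00277), and it ran from 0.36 to 2.41 over the alternatives of processing and samples. With day 2 signals set no lower than their detection limit, the rise was 3.16-fold. The growth factor *Igf1*, which both macrophages and other cells of the ganglion can secrete, read 7.38, 7.83, 7.56 and 7.26 at day 2 and 9.07, 8.79, 8.86 and 8.96 at day 5. Its day 2 samples were near the control mean of 7.57, and it rose 2.67-fold (adjusted p = 9.65e-05). Genes picked after their values were seen include the scavenger receptor *Stab1* (1.26), the Fc receptor-like *Fcrls* (1.33) and the chemokine *Ccl24* (1.43), all of which passed, though *Ccl24* did not without 5 of the 8 samples (adjusted p up to 0.0682). Lymphocyte markers did not pass for any of 26 members (median 0.10). Of 41 interferon response genes *Oas2* alone rose (1.37, adjusted p = 0.0072), a share of 2.44% against 0.591% of all genes.

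Among the largest rises were *Reg3b* and *Reg1*, which encode secreted lectins of the regenerating family. *Reg3b* was not well above background in any control or day 2 sample and read 5.92, 6.06, 6.71 and 5.54 at day 5, 6.06-fold higher than at day 2 (adjusted p = 0.000988). Its log2 difference ran from 0.80 to 3.44 over the alternatives of processing and samples. *Reg1* read 6.44, 6.84, 5.98 and 6.42 at day 2 and 7.85, 8.22, 8.47 and 8.09 at day 5, and it was not well above background in any control sample. All day 5 samples lay above all day 2 samples, and the rise was 3.33-fold (adjusted p = 0.00151). *Anxa10*, a member of the annexin family, was also not well above background in any control sample. It read 7.55, 7.82, 7.13 and 7.55 at day 2 and 9.44, 9.68, 9.57 and 9.44 at day 5, a tight 4.06-fold rise (log2 difference 2.02, SE 0.23, adjusted p = 0.000207) at a probe on chromosome 8 at 64536504-64536563 (mm9).

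*Car1*, a carbonic anhydrase, had the second smallest p-value of the higher genes, with 6.95, 7.10, 6.91 and 7.14 at day 2 and 8.65, 8.44, 8.27 and 8.27 at day 5. Both groups were narrow, and the rise was 2.61-fold (adjusted p = 7.81e-06). *Car1* is abundant in red blood cells. The erythroid markers had a median of -1.33 in WT, with none passing, while in KO their median was 0.21 and *Car1* rose by 1.82. The part that blood RNA has in the *Car1* level was not tested. In the list of annexins, S100 proteins and galectins, 3 of 26 rose (11.5%, against 0.591% of all genes), namely *Anxa10*, *S100a3* (0.66) and *Lgals1* (0.50). Genes chosen after their values were seen and not named by the rule were the cystatins *Csta2* (1.15) and *Csta1* (0.93), the retinoic acid hydroxylase *Cyp26a1* (1.18), the carbonic anhydrase *Car3* (1.17), the phosphodiesterase *Pde1a* (1.11) and the calcium channel of the endoplasmic reticulum *Itpr1* (0.67), which all rose. The call for *Car3* (adjusted p = 0.0249) was lost without 7 of the 8 samples (up to 0.103). When the probes of each gene were averaged, the calls for *Car3* and *Csta1* were lost. The second, dimmer probes of *Car3* and *Csta1* differed by 0.35 and -0.65, and neither passed.

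The core set of neuronal injury genes was high at both days. *Atf3*, the transcription factor most used to mark axotomized neurons, read 13.49, 13.83, 13.68 and 13.78 at day 2 and 13.86, 13.76, 13.87 and 13.93 at day 5, with a control mean of 8.55. The groups overlapped, and the difference of 0.16 (SE 0.50, adjusted p = 0.968) did not pass. That SE comes from the spread over all 24 samples, controls included. In limma on the 16 injured samples of both genotypes, chosen after the data were seen, the SE of *Atf3* was 0.205 (adjusted p = 0.906). Its AP-1 partner *Jun* differed by 0.06 and *Sox11*, a factor of growing neurons, by 0.10, and neither passed. *Nfil3* itself read 10.44, 10.76, 10.34 and 10.54 at day 2 and 10.64, 10.96, 10.98 and 11.08 at day 5. The groups overlapped and the difference of 0.40 did not pass (adjusted p = 0.943). Its SE of 0.81 comes from a spread shared with the KO samples, which read 2.82 to 6.22. With the 8 WT samples alone the adjusted p was 0.503. No member of the AP-1 list passed among 14, with a median of 0.01.

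Among 30 regeneration-associated genes 3 rose (10%, against 0.591% of all genes), and the list's median was 0.08. These were *Ecel1*, a protease of injured neurons (1.20, adjusted p = 0.0407), *Lgals1* (0.50, adjusted p = 0.0252) and the neuronal tubulin *Tubb3* (0.30, adjusted p = 0.0427). Each lost its call when single samples were left out, in 8, 5 and 7 of 8 cases, with adjusted p of up to 0.159, 0.111 and 0.168. *Gap43*, a growth cone protein, differed by 0.71 without overlap of the groups (adjusted p = 0.0974), and it passed in 8 of 27 alternatives, among them no background correction and the slide as a block, with a lowest adjusted p of 0.00645. *Arg1*, an enzyme of polyamine synthesis, differed by -0.18 and did not pass.

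*Sprr1a*, which promotes axon outgrowth, read 13.75, 14.24, 13.21 and 13.48 at day 2 and 15.68, 15.70, 15.31 and 15.20 at day 5. The days did not overlap and lay 1.81 apart, yet the SE was 1.11 (adjusted p = 0.685). In the control samples it read 5.82, 9.28, 6.11 and 11.71, where replicates 2 and 4, each on an array with an injured WT sample, were far above the others. The neuropeptide *Npy* had the same form, with 11.39, 11.71, 11.03 and 11.16 at day 2, 13.18, 13.04, 13.27 and 13.10 at day 5 and 4.33, 7.84, 4.12 and 9.38 in control (difference 1.82, adjusted p = 0.591). The share that the second dye of an array has in these control values was not tested. In a fit of the 16 injured samples of both genotypes, chosen after the data were seen, both genes passed, with adjusted p of 0.0109 for *Sprr1a* and 0.0123 for *Npy*. The neuropeptide *Gal* differed by 0.75 and passed in neither fit (adjusted p = 0.416 and 0.089), while *Vip* was not well above background in any sample.

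Among the neuropeptides that injury induces, 1 of 10 rose and 1 fell, against 0.591% and 0.144% of all genes. *Nts*, the precursor of neurotensin, read 12.44, 12.44, 12.18 and 12.32 at day 2 and 13.75, 13.66, 13.42 and 13.56 at day 5, with a control mean of 9.15. It thus climbed a further 2.38-fold (log2 difference 1.25, adjusted p = 0.00225). *Adcyap1*, the precursor of PACAP, went the other way, with 12.50, 12.56, 12.86 and 12.58 at day 2 and 11.85, 11.94, 12.01 and 11.99 at day 5. It fell by 0.68 (adjusted p = 0.00484) and was still above the control mean of 10.47. Levels of sensory neuron markers had a median difference of -0.02, and 1 of 16 members, *Tubb3*, passed. No gene of the sodium channel list (13 members, median -0.24), of the potassium and HCN channel list (29, median -0.12) or of the synaptic vesicle list (28, median -0.15) passed. *Kif21b*, a kinesin, rose by 0.61 (adjusted p = 0.0242), a call lost without 6 of the 8 samples (up to 0.0905) and when its probes were averaged. The NMDA receptor partner *Neto1*, chosen after its values were seen, rose by 0.87.

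**Figure D3:**
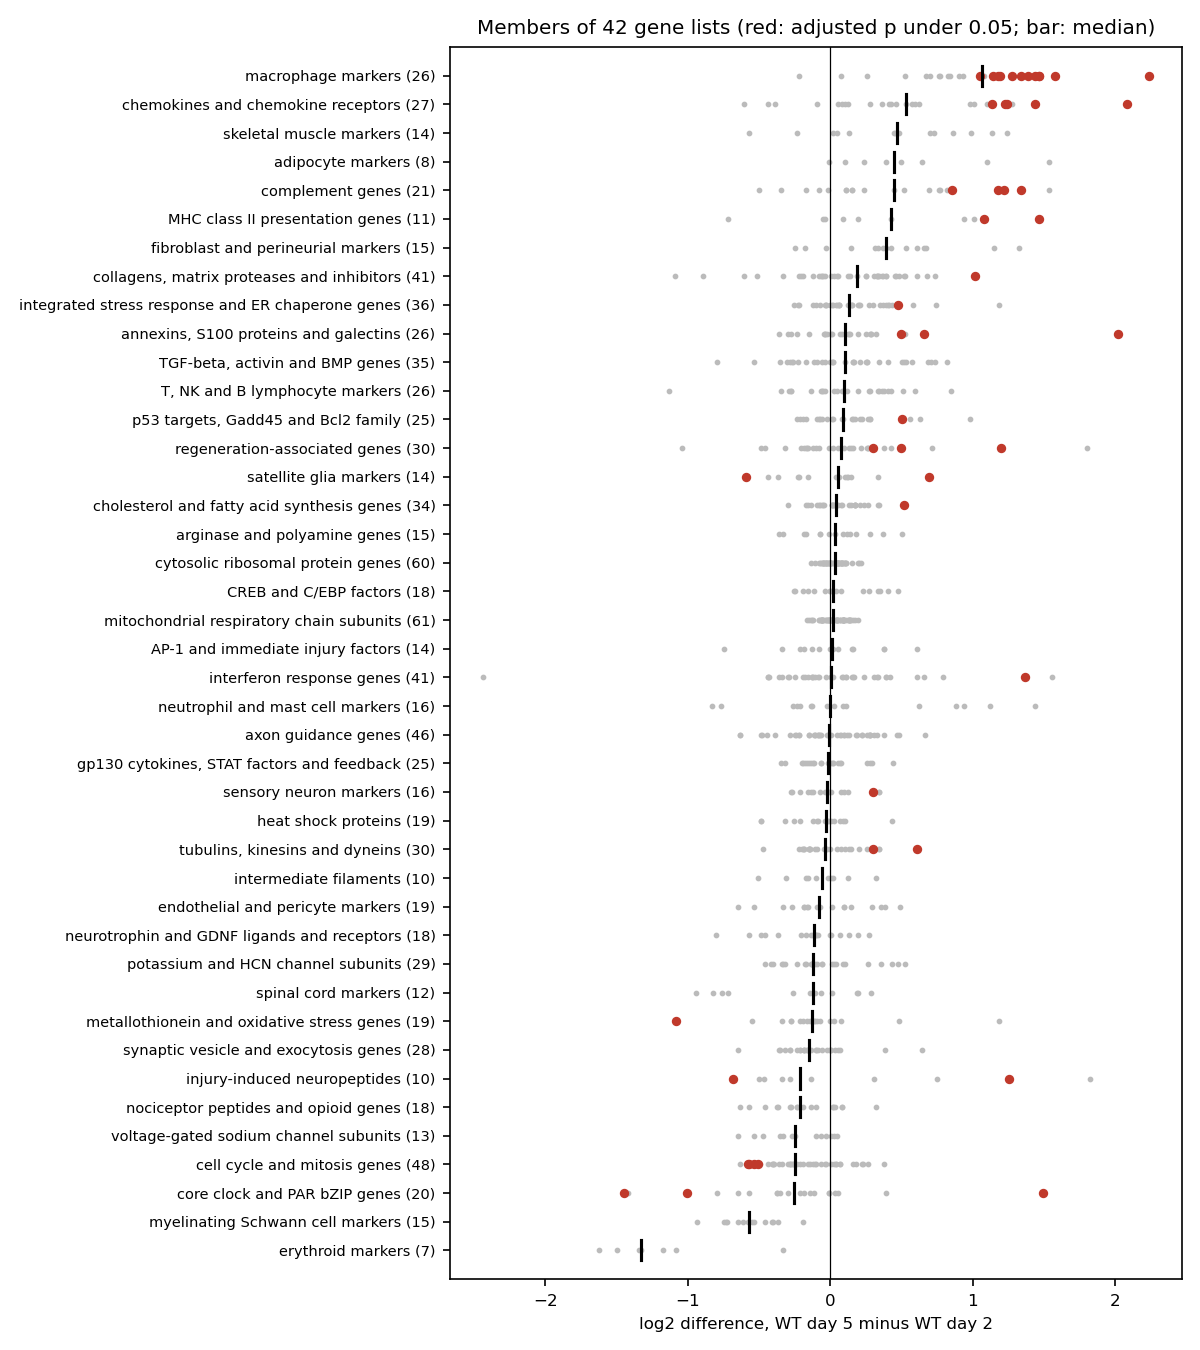
Each row is 1 of 42 gene lists with the number of its members on the array, and each point is the log2 difference of 1 member between WT day 5 and WT day 2. Red points passed, and the bar is the median, which runs from -1.33 for erythroid markers to 1.06 for macrophage markers.

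*Saa3* and *Saa2*, which encode serum amyloid A proteins of the acute-phase response, had the largest falls among the genes named by the rule. *Saa3* read 7.13, 7.20, 7.29 and 6.95 at day 2 and 5.29, 4.79, 4.71 and 5.01 at day 5, which is still above the control mean of 4.07. It fell by 2.19 (SE 0.26, adjusted p = 0.000303), so that day 2 was 4.57-fold above day 5, at a probe on chromosome 7 at 53968031-53968090 (mm9). *Saa2* read 9.84, 10.01, 10.19 and 9.81 at day 2 and 8.08, 7.50, 7.98 and 7.53 at day 5 and fell by 2.19 as well (adjusted p = 9.65e-05). *Saa1* fell by 1.80 (adjusted p = 0.000241). *Saa1* and *Saa2* are near-identical in sequence, so their probes may read both. Of 251 aligned bases before their start sites, 238 were the same, which is 94.8%, while *Saa3* shared 54.8% with *Saa1*.

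Several lower genes are best known from skin. *Serpinb5*, a serpin of epithelial cells, read 7.74, 8.01, 7.68 and 8.06 at day 2 and 6.55, 6.14, 6.94 and 6.44 at day 5. All day 2 samples lay above all day 5 samples, and it fell by 1.36 (adjusted p = 0.00277). The cornified envelope genes *Lce1g* and *Lce1i* fell by 1.77 (adjusted p = 0.0436) and 1.34 (adjusted p = 0.0244), but lost their calls without 7 and 6 of the 8 samples (adjusted p up to 0.163 and 0.103), and members of this family are alike in sequence. A second, dimmer probe of *Lce1g* differed by -0.37 and did not pass (adjusted p = 0.591). *Areg*, a ligand of the EGF receptor, fell by 1.19 (adjusted p = 0.0436) to a level where 2 of 4 samples were well above background, and lost its call without 7 of the 8 samples (adjusted p up to 0.16). *Mt2*, a metallothionein that binds zinc and copper, read 14.19, 14.65, 14.51 and 13.94 at day 2 and 13.19, 13.21, 13.17 and 13.40 at day 5. It fell by 1.08 (adjusted p = 0.0313), again not without 7 of the 8 samples (up to 0.106), and its neighbour *Mt1* differed by -0.55 (adjusted p = 0.239). *Tmem252* fell by 1.04 (adjusted p = 0.0274) and lost its call without 6 of the 8 samples (up to 0.118).

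**Figure D4:**
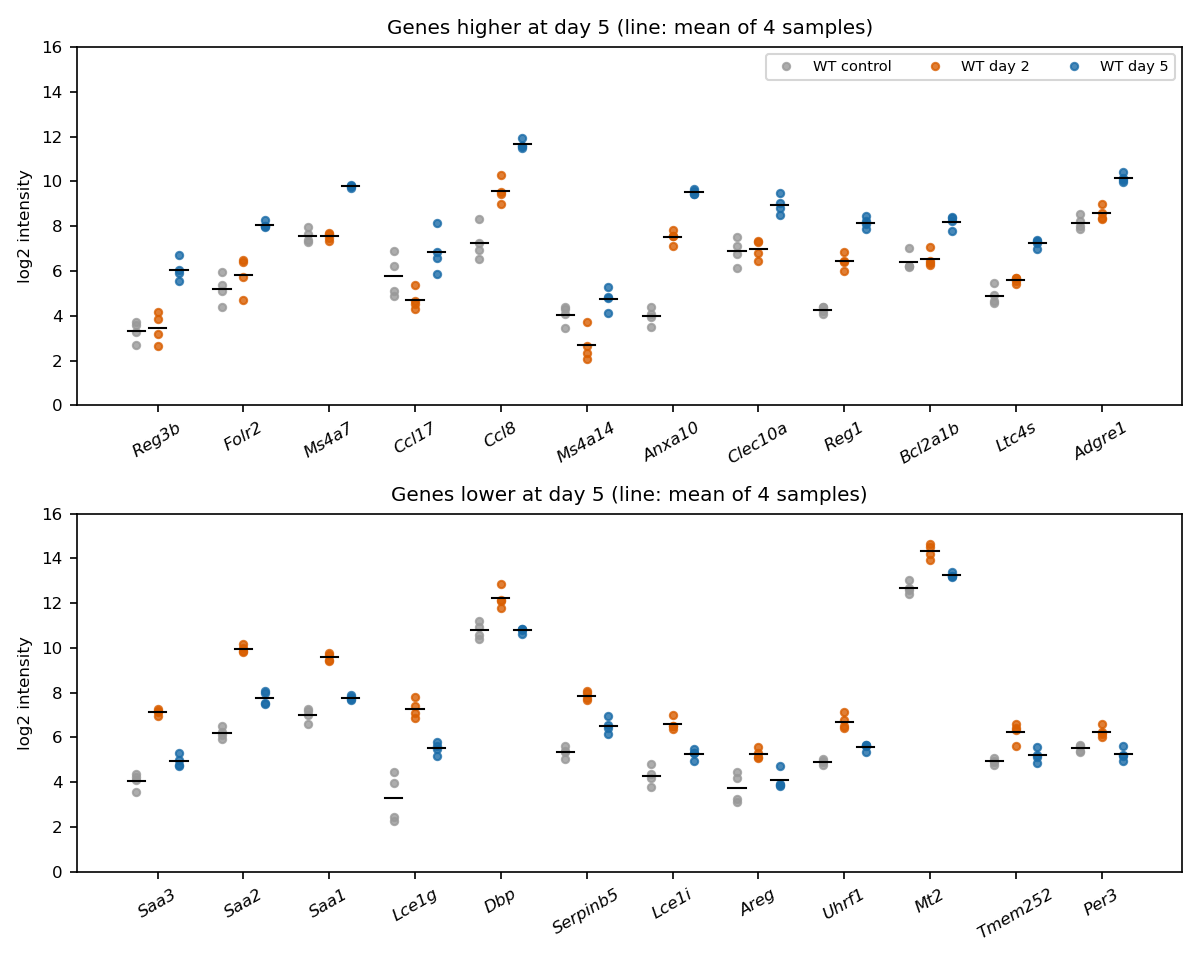
For the 12 higher and the 12 lower genes with the largest difference, the log2 intensity of each of the 4 samples of WT control, WT day 2 and WT day 5 is plotted, with a line at each mean. In all 24 genes the day 2 and day 5 samples do not overlap, which was a condition of their choice.

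*Uhrf1*, which keeps DNA methylation through cell division, read 6.41, 6.77, 7.14 and 6.50 at day 2 and 5.65, 5.62, 5.37 and 5.66 at day 5. The samples of the days did not overlap, and the gene fell by 1.13 (adjusted p = 0.0106). The mismatch repair gene *Msh6* was narrower in its groups, with 10.91, 11.19, 10.82 and 10.85 at day 2 and 9.86, 10.11, 9.81 and 9.95 at day 5, and fell by 1.01 (adjusted p = 0.000998). Of 48 cell cycle and mitosis genes, 4 fell (8.33%, against 0.144% of all genes) and none rose, with a median of -0.25. These were *Tk1* (-0.58) and *Tyms* (-0.57), which make thymidine nucleotides, the helicase subunit *Mcm5* (-0.53) and the spindle protein *Tpx2* (-0.51), and each lost its call without 5 to 8 of the 8 samples. With the slide as a block, of the 4 only *Tk1* passed, and *Mcm5*, *Tyms* and *Tpx2* had adjusted p of 0.126, 0.0615 and 0.107. The proliferation marker *Mki67* differed by -0.55 and did not pass (adjusted p = 0.671). The summed intensity of the cell cycle list was 20130 to 23740 at day 2, 22790 to 24990 at day 5 and 9911 to 10370 in control. By this measure the list stood above control at both days and did not fall between them.

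Blood and Schwann cell markers had values in the direction of the lower genes without passing. All 7 erythroid markers had a negative difference, 6 of them at an unadjusted p under 0.05, and their summed intensity was 41830 to 219400 at day 2, 33800 to 79300 at day 5 and 30860 to 80250 in control. *Alas2*, the heme synthesis enzyme of red cell precursors, read 9.35, 11.51, 12.32 and 11.30 at day 2, so that replicate 1 was apart from the others, and 9.99, 9.40, 8.84 and 9.78 at day 5. Its difference of -1.62 did not pass (adjusted p = 0.271), but without day 2 replicate 1 it was -2.21 and passed (0.0489). All 15 myelinating Schwann cell markers were negative too (median -0.57). Their summed intensity was 98570 to 213700 at day 2, 70150 to 108400 at day 5 and 77120 to 104300 in control, so that day 5 was near control. The part that blood or Schwann cell RNA has in the lower genes was not tested. Of the satellite glia list *Fabp7* rose by 0.69 (adjusted p = 0.0398) and *Fbln5* fell by 0.59 (adjusted p = 0.0281), with a list median of 0.05, and both lost their calls without 7 of the 8 samples (up to 0.138 and 0.103).

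Of the clock genes, 1 rose and 2 fell. *Arntl*, which encodes BMAL1, the activator of the clock loop, read 5.70, 5.30, 6.06 and 5.63 at day 2 and 7.17, 7.13, 6.96 and 7.39 at day 5. It lay below the control mean of 6.79 at day 2 and above it at day 5, and the rise was 2.81-fold (log2 difference 1.49, SE 0.17, adjusted p = 0.000182) at a probe on chromosome 7 at 120456978-120457037 (mm9). *Dbp*, a PAR bZIP factor and a clock output, read 12.11, 12.15, 12.87 and 11.78 at day 2 and 10.84, 10.64, 10.84 and 10.82 at day 5, the latter at the control mean of 10.79. It fell by 1.44 (SE 0.29, adjusted p = 0.0209), a call that did not hold without 5 of the 8 samples (adjusted p up to 0.0661) or with the slide as a block (0.0513). *Per3*, a period gene of the repressor arm, read 6.03, 6.24, 6.58 and 6.17 at day 2 and 5.19, 4.96, 5.20 and 5.64 at day 5. It fell by 1.01 (adjusted p = 0.011), and without day 5 replicate 2 the adjusted p was 0.0525. Of 20 genes of the clock and PAR bZIP list, these 3 passed. That is 5% higher and 10% lower, against 0.591% and 0.144% of all genes. Among the others *Ciart* differed by -1.42 (adjusted p = 0.14), *Nr1d1* by -0.79 (0.399), *Nr1d2* by -0.64 (0.0755) and *Tef* by -0.37 (0.109). *Ciart* passed in 2 of 27 alternatives, both of background correction (adjusted p down to 0.00459), and *Nr1d2* and *Tef* each passed in 4 (down to 0.03 and 0.0118). The hour of tissue collection is not given in the sources used here.

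The same step in KO mice shares no sample with the WT comparison, although both were read from 1 fit with a common estimate of the spread. They are not separate in the hybridisation, since 4 of the 8 WT samples shared an array with a KO sample of the same day, and samples of 1 array correlated at 0.262 in their residuals. In KO, 208 genes were higher at day 5 and 60 lower, which are 0.75% and 0.216% of all genes. Of the 204 genes that passed in WT, 199 had the same sign in KO and 133 passed there as well, which is 65.2% of the WT genes and 49.6% of the KO genes. The share of all genes with the same sign in both genotypes is not given here. The median KO difference was 0.88 over the genes higher in WT and -0.72 over those lower. *Ms4a7* differed by 1.90 in KO, *Anxa10* by 2.28, *Nts* by 1.44, *Saa2* by -2.20 and *Saa3* by -2.33, and all of these passed. Macrophage markers had 13 of 26 members higher and a median of 1.11.

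Some genes had a much smaller difference in KO. *Ccl17* read 4.73, 4.53, 4.87 and 4.23 at KO day 2 and 4.60, 4.94, 5.45 and 4.59 at KO day 5, where the groups overlapped and the difference was 0.30 (adjusted p = 0.904), against 2.15 in WT. *Dbp* differed by -0.71 (adjusted p = 0.376), *Uhrf1* by -0.52 and *Tpx2* by -0.02. The test of the difference between the genotypes' changes gave no gene at an adjusted p under 0.05, with 716 genes at an unadjusted p under 0.05 and 0.64 as the smallest adjusted p. Of the 204 genes, 16 were at an unadjusted p under 0.05 in that test, and *Ccl17*, *Tpx2* and *Uhrf1* were among them. Erythroid markers had a median of 0.21 in KO, and 5 of 7 differed between genotypes at an unadjusted p under 0.05. The myelinating Schwann cell list had a KO median of -0.07 and the cell cycle list of 0.01, with no member of either passing.

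**Figure D5:**
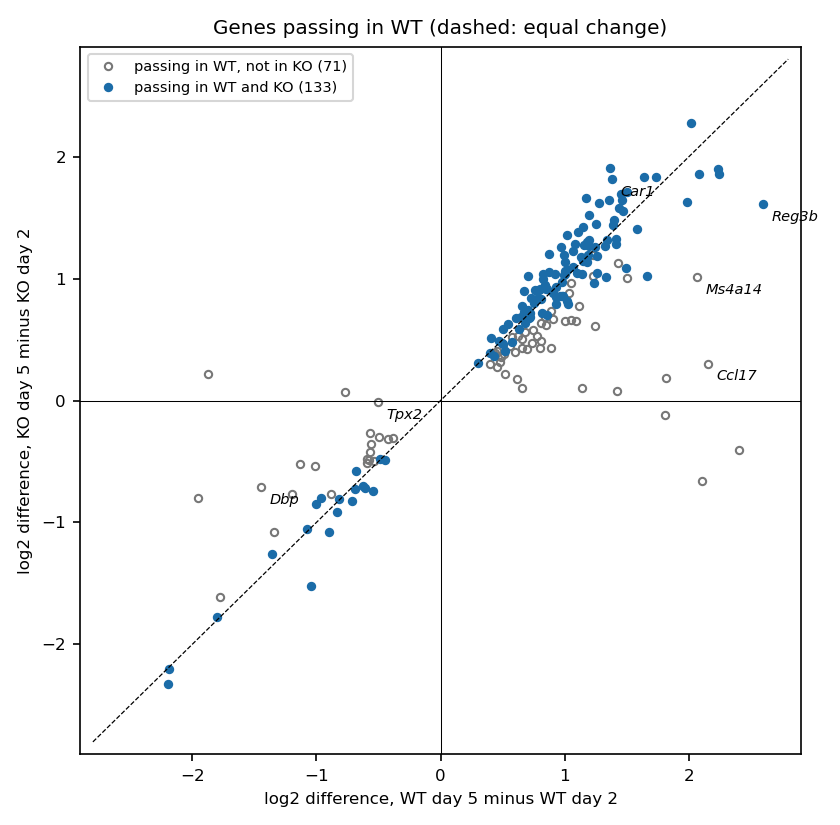
Each point is 1 of the 204 genes that passed in WT, with its log2 difference between day 5 and day 2 in WT on the x axis and in KO on the y axis, and the dashed line marks equal change. Of these genes 199 have the same sign in both, and 133 passed in both.

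On slide 3, where both days were hybridised, the comparison is 2 against 2 samples. The dyes were not balanced there, since both day 2 samples were in Cy3, while day 5 had replicate 2 in Cy3 and replicate 4 in Cy5. All 204 genes had the same direction there, with medians of 0.95 for the higher and -0.82 for the lower genes, though these samples also took part in the calls. In limma no gene passed in those 4 samples alone, where 1942 genes had an unadjusted p under 0.05. Of the macrophage markers 25 of 26 were positive on that slide, with a median of 1.22. With the slide as a block over all samples, 168 genes passed. Among the genes described here *H2-Aa*, *C1qc*, *Tubb3*, *Fabp7*, *Mt2*, *Lce1g*, *Lce1i*, *Areg*, *Tmem252*, *Dbp*, *Mcm5*, *Tyms* and *Tpx2* no longer did, with adjusted p of 0.0513 to 0.126.

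The bases before the start sites of the changed genes were read from RefSeq (GRCm38.p6), which held 114 of the 164 higher and 32 of the 40 lower genes. In the 250 bases before the start, on either strand, the AP-1 motif TGANTCA was found in 21 of 114 higher genes (18.4%), in 4 of 32 lower genes (12.5%) and in 7.82% of all 27025 genes. The cAMP response element TGACGTCA was found in 1 of the higher and 2 of the lower genes and in 1.77% of all. The motif TTACGTAA, shared by NFIL3 and the PAR bZIP factors, was found in none of either set and in 0.118% of all, and its variant TTATGTAA in *Ms4a7*, in *Per3* and in 0.977% of all. The E-box CACGTG of the clock was found in 5 of the 17 clock and PAR bZIP genes with a sequence (29.4%), in 3 of the higher genes, in 1 of the lower genes and in 6.86% of all. These counts were not tested, and a match of letters does not show that a factor binds there.

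The sequences of 3 genes are shown because each holds 1 of these motifs, given in capitals and read 5′ to 3′ on the gene's strand. *Per3* lies on the minus strand with its window at chr4:151044666-151044915, and its motifs begin 205 and 158 bases before the start. *Nts* lies on the minus strand with its window at chr10:102490419-102490668, and its AP-1 motif begins 207 bases before the start. *Areg* lies on the plus strand with its window at chr5:91139349-91139598, and its cAMP response element begins 61 bases before the start.
Per3: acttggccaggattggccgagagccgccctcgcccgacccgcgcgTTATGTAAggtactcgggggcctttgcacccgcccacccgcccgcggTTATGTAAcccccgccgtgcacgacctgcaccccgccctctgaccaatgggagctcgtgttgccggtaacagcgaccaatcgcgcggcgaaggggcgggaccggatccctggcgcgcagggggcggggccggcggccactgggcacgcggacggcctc
Nts: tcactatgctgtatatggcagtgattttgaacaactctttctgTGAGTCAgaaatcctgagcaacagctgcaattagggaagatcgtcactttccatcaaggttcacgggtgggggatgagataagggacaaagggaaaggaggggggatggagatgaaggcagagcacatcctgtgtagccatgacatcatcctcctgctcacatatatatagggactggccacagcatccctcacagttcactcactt
Areg: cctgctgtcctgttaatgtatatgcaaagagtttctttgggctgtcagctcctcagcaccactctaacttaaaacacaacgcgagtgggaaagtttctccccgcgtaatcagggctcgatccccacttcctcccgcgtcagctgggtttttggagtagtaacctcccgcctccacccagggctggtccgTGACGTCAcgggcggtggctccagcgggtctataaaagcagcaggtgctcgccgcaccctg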

How the data were processed

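RNA of 24 DRG samples was hybridised to 12 Agilent 4x44K arrays on 3 slides, 1 sample per channel, with 4 independent replicates per group, 2 in Cy3 and 2 in Cy5. The authors used Agilent Feature Extraction 10.7.3.1 on the scans, and the deposited intensity values per spot and channel are neither background corrected nor normalized, while the deposited processed intensity was used in an alternative. The number of arrays limits the precision.

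All else was computed here in R 4.3.3 with limma 3.58.1. Random blocks used statmod 1.5.0, and files were read by version 1.17.8 of the data.table package. After the study's methods, mean foreground and median background were corrected by the Edwards method. Control and outlier spots were left out (417 probe values missing), channels were quantile normalized together, and values were put on a log2 scale and averaged per probe. Samples were grouped by title, which for KO control replicate 4 disagrees with its labelled day of 5, and that sample enters only the shared spread. One mean per group was fitted to all 24 samples with lmFit and eBayes, and differences were tested with Benjamini-Hochberg adjustment over 41174 probes at 0.05. A gene is its probe with the highest mean, and 66.7% of probes were named through an accession in RefSeq tables (GRCm38.p6), which also gave promoter sequences. Probe positions are in mm9. Where no sample of the dimmer day showed a probe well above background, the fold was taken with a floor. Each dim sample takes its own signal or its detection limit, whichever is larger, so the fold still depends on the processing. The limit is the dimmest signal that passed in that sample.

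The members and the 42 gene lists were chosen with earlier results of these data known. Genes named are the 12 largest differences and 5 smallest p-values each way among passing genes that were well above background in all 4 samples of the brighter day and did not overlap, up to 4 passing members per list, fixed genes of the injury response, and the 3 smallest p-values of the genotype difference, which fell on names of clones or probes and are not described. Scripts were tested on simulated data. Alternatives changed the background, foreground, normalization, filters, probe choice, dye, slide, array and replicate terms and the samples. The authors' other analyses were not used. Some genes that the rule names are not reported here.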

Additional observations from a re-analysis of the deposited data

Results flagged for a closer look

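In 14 of 192 groups of 4 samples, 1 sample lay far from the other 3 by Dixon's ratio, the gap to the nearest sample over the range of the group. Chance marks about 1 in 20 such groups. The ratio is given in parentheses, and levels are log2 intensities.

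At day 2, replicate 3 was the highest sample in 3 genes of antigen presentation, with 11.48 against 10.49 to 10.63 for Ctss (0.858), 8.91 against 7.73 to 7.83 for H2-Aa (0.912) and 11.87 against 10.55 to 10.76 for H2-Ab1 (0.843). Replicate 2 was high for Itpr1 at day 2, with 10.59 against 10.36 to 10.39 (0.873).

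At day 5, replicate 1 stood apart for Tpx2 (5.99 against 6.28 to 6.32, ratio 0.877), Creb1 (8.49 against 8.17 to 8.21, ratio 0.87), Itpr1 (11.23 against 11.04 to 11.06, ratio 0.87) and Neto1 (10.87 against 10.997 to 11.02, ratio 0.83). Replicate 2 stood apart for Dbp (10.64 against 10.82 to 10.84, ratio 0.884) and Areg (4.73 against 3.83 to 3.91, ratio 0.906). Replicate 3 was low for Mki67 (6.997 against 7.96 to 8.01, ratio 0.948), Uhrf1 (5.37 against 5.62 to 5.66, ratio 0.876) and C1qa (10.11 against 10.45 to 10.49, ratio 0.885). Replicate 4 was high for C1qc (11.89 against 11.63 to 11.66, ratio 0.912).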

How the results depend on the processing

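The 204 genes that passed (164 higher, 40 lower) became 389 (295 and 94) with no background correction and 378 (291 and 87) with normexp, and the 268 of KO became 472 and 455, or 411 when dim probes were left out first. With the array as a random block the lower genes were 63. The 8 samples fitted alone gave 42 genes (37 and 5), and the 4 samples of slide 3 gave 0 (0 higher and 0 lower). Leaving out 1 sample at a time gave 92 to 216 genes, 78 to 177 higher and 13 to 39 lower. In fits chosen after seeing the data, leaving out both samples of the array that held both days gave 74 (61 and 13), and the 16 injured samples gave 117 (101 and 16). The other settings stayed within 1.5 times of these counts, and the difference between genotypes gave 0 genes wherever it was run. The causes were not tested. Of 68 named genes that passed, 38 kept their call without each of the 8 samples and 39 under each of 15 changes of processing or covariates, but none did in the 4 samples of slide 3. Of 28 named genes that had not passed, 10 passed in at least 1 alternative. The difference turned sign for 4933403J19Rik (-0.092 from the processed signals), Mki67 (0.093 on slide 3) and Vip (-0.83 to 0.13 with 1 sample left out, 0.10 without the shared array), none of which had passed. Replicate numbers did not pair the samples, since the deviations of samples with the same number correlated at -0.0546, 0.161, 0.0705 and 0.0016, and with the replicate block 189 genes passed (153 and 36). That block also takes in the dye, since replicates 1 and 2 were in Cy3 and 3 and 4 in Cy5.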
